A study of Homo sapiens with 6 samples.

Results

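Long intergenic noncoding RNAs (lincRNAs) are RNAs transcribed from loci of their own that lie apart from protein-coding genes. Most are capped, spliced and polyadenylated like messenger RNAs but hold no long open reading frame. Some stay in the nucleus and build structures there, as NEAT1 does in paraspeckles, some bind proteins in the cytoplasm, as NORAD binds the Pumilio proteins, and some are cut in the nucleus to release microRNAs. The RNAs described here are the well-expressed lincRNAs of SKOV3ip1 cells, selected on their total counts: rows with the biotype lincRNA and a sum of at least 400 raw counts over all 6 libraries, without the snoRNA host genes GAS5, ZFAS1, EPB41L4A-AS1 and the SNHG series. Of 58735 rows in the table, 7629 were lincRNAs, 2721 of them had any count and 119 reached 400 counts. Of these 119, 5 were left out by name (SNHG4, SNHG8, SNHG15, SNHG19 and EPB41L4A-AS1), which left 114 members. The names are those of the count table, so LINC02001, which RefSeq calls SNHG30, stayed a member (called higher, log2 fold change 0.40). All 114 were among the 15271 genes tested.

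SKOV3ip1 is a human ovarian adenocarcinoma cell line, of wild-type genotype per the labels. Cells in culture were transfected with 2 µg of Control siRNA or BARD1 siRNA by lipofection and collected at 48 h, with 3 libraries in each group, so that all groups carry a transfected siRNA and all results are from 1 cell line. BARD1 is the partner of BRCA1 in a nuclear ubiquitin ligase, and the design asked how its silencing affects pathways of tumour angiogenesis. The titles number biological replicates, but whether they were separate transfections, and whether the number after the siRNA's name marks a different siRNA, is not stated in the labels. If the cultures were not separate, p-values measure only a technical spread. The source labels read "tumors" although the protocols describe cultured cells.

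Libraries held 16621108 to 17743404 gene counts. BARD1 had 805, 644 and 887 counts in the Control siRNA libraries against 96, 110 and 169 in the BARD1 siRNA libraries, and fell from 44.3 ± 5.85 to 7.38 ± 2.04 normalised CPM (counts scaled to a library of 1000000; SD, n = 3), a log2 fold change (log2FC) of −2.58 with a standard error (SE) of 0.14 and an edgeR adjusted p of 1.21e-15. ERBB2, which this line is known to amplify, stood at 1890 to 2187 CPM, and KRT8, KRT18, KRT7, EPCAM and PAX8 were present, whereas WT1 and MUC16, also listed for ovarian carcinoma, reached at most 0.777 and 0.492 CPM. The leukocyte markers PTPRC, CD68 and CD3E had 0 counts. Of the fibroblast markers, COL3A1 reached 8.71 to 19.6 CPM, COL1A1 4.67 to 7.18 CPM, and DCN and PDGFRB stayed under 0.690 CPM. Mitochondrially encoded genes took 5.23 to 5.73% of counts with Control siRNA and 4.93 to 5.15% with BARD1 siRNA, and the part of this difference in the results was not tested.

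The lincRNAs as a group took more of the library after BARD1 silencing, and MALAT1 and NEAT1 made up that gain. The 114 members held 0.245%, 0.235% and 0.236% of all gene counts in the Control siRNA libraries and 0.316%, 0.319% and 0.316% in the BARD1 siRNA libraries, so the groups did not overlap. MALAT1 and NEAT1 together were 9.67 to 12.0% of the member counts with Control siRNA and 34.2 to 34.5% with BARD1 siRNA. The other 112 members took 0.208 to 0.215% of all counts with Control siRNA and 0.207 to 0.209% with BARD1 siRNA, ranges that overlap. In bulk RNA, fewer cells making an RNA and less RNA per cell cannot be told apart.

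**Figure D1:**
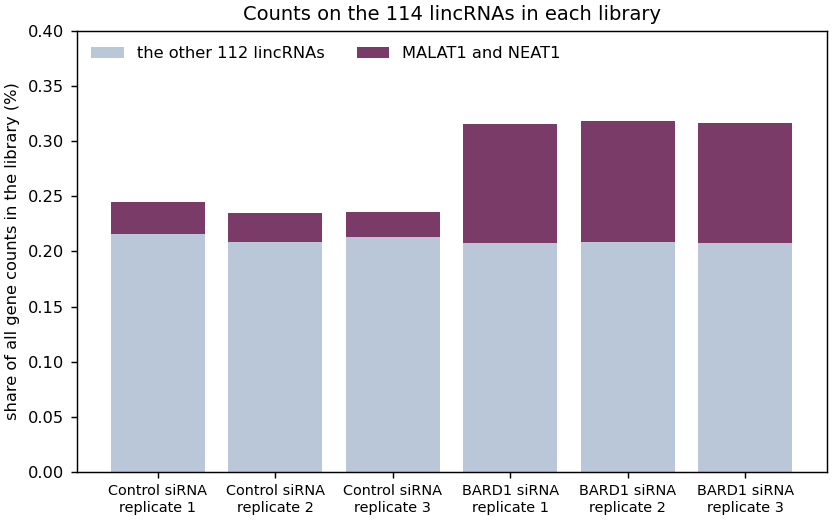
Share of all gene counts (in percent, linear axis from 0) that fell on the 114 lincRNAs in each of the 6 libraries. The light part of each bar is the sum of 112 members and stays between 0.207 and 0.215%; the dark part, MALAT1 with NEAT1, is larger in the BARD1 siRNA libraries.

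Over the 114 members, 30 were higher and 23 were lower with BARD1 siRNA at an adjusted p under 0.05 in the edgeR quasi-likelihood test over all genes, and 61 did not pass. Among all tested genes 22.0% were called higher and 20.3% lower. Among the 11524 tested genes that also had at least 400 counts, those shares were 26.3% and 24.7%, beside 26.3% and 20.2% of the members. The members' counts thus lay near the background. This split moved with the scaling: under upper-quartile factors 24 members were higher and 33 lower, and with library size alone 25 and 32, while all tested genes went to 2815 higher and 3975 lower with upper-quartile factors.

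The median log2 fold change of the members was −0.029, against −0.0075 over all tested genes, with a range from −2.0 to 3.15. Changes of 2-fold or more were seen for 6 higher and 4 lower members of the 114. Among the 11524 tested genes with at least 400 counts, 408 called higher and 113 called lower changed as much. Among all 15271 tested genes the numbers were 684 and 297. In 61 members the 2 groups did not overlap, with BARD1 siRNA above Control siRNA in 33 of them; of all tested genes 50.4% separated in this way. The threshold used both groups, so 18 members reached it only through their higher group. Given the count of its lower group, each such member had to differ, but not always by much. AP003486.1 is among them with 217 against 183 counts, and 4 of the 18 were not called. The 18 include 2 of the 6 higher and 3 of the 4 lower members with 2-fold changes. Among the 96 whose lower group alone would hold 200 counts, 22 were higher and 17 lower, 4 and 1 of them by 2-fold or more, and log2 fold changes ran from −1.08 (LINC00707) to 2.96 (NEAT1). Just inside the threshold stood MIR137HG with 421 counts, AC145207.5 with 406 and AP003486.1 with 400. Just outside stood LINC02522 with 395 counts, SCAMP1-AS1 with 388 and AL157931.1 with 380, the last with 332 counts in Control siRNA and 48 in BARD1 siRNA libraries.

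**Figure D2:**
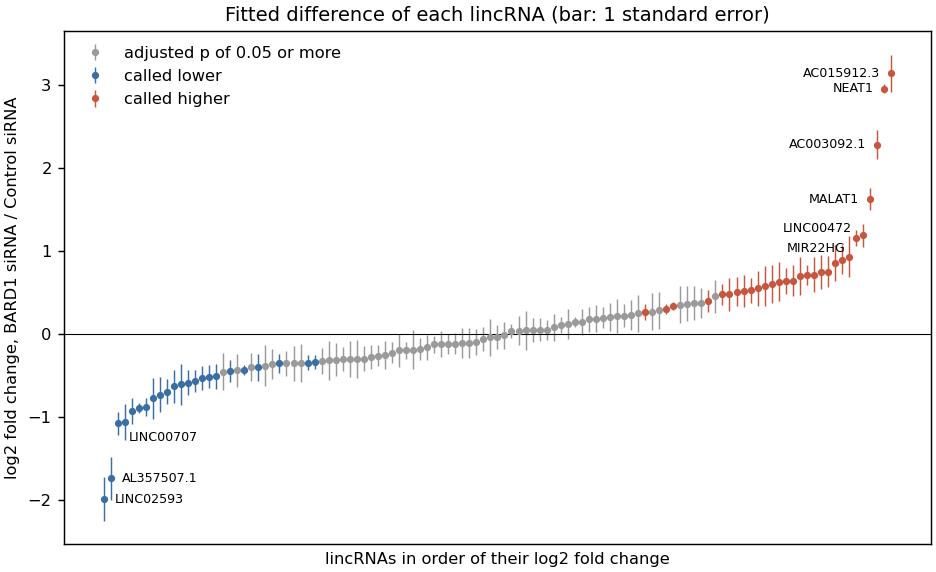
Fitted log2 fold change (BARD1 siRNA over Control siRNA) of the lincRNAs reported individually, in ascending order, with bars of 1 standard error. Red and blue points passed the adjusted p of 0.05; 4 named RNAs stand apart at the upper end, from 1.63 for MALAT1 to 3.15 for AC015912.3, and LINC02593 and AL357507.1 at the lower end.

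The nuclear architectural RNAs rose furthest among the highly counted members. NEAT1 (ENSG00000245532, GRCh38 chromosome 11, 65422774 to 65445540, plus strand) is the scaffold on which paraspeckles assemble. It had 1118, 1238 and 1189 counts in the Control siRNA libraries against 8454, 9034 and 9043 in the BARD1 siRNA libraries. Every BARD1 siRNA library was far above every Control siRNA library, with little spread within either group. Its level rose from 67.4 ± 4.70 to 525 ± 8.76 CPM, which is 7.79-fold (log2FC 2.96, SE 0.06, edgeR adjusted p = 3.02e-42). The table counts the gene as a whole, so that its short polyadenylated and its long isoform are not separated.

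MALAT1 (ENSG00000251562, chromosome 11, 65497688 to 65506516, plus strand) lies downstream of NEAT1 on the same strand and accumulates in nuclear speckles, the stores of splicing factors. Its counts were 3945, 3216 and 2856 in the Control siRNA libraries against 9527, 9944 and 10297 in the BARD1 siRNA libraries. The groups did not overlap, but the Control siRNA libraries were spread more widely than the BARD1 siRNA libraries. The level rose from 191 ± 33.1 to 589 ± 2.64 CPM (3.09-fold, log2FC 1.63, SE 0.13, edgeR adjusted p = 0.000205). FRMD8, the protein-coding gene nearest to NEAT1, had a log2 fold change of 0.14 (adjusted p = 0.203).

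Messenger RNAs of paraspeckle proteins, which coat NEAT1, moved in both directions. Of 14 tested, 2 rose, 7 fell and 5 did not pass, beside 22.0% of all tested genes higher and 20.3% lower, and the median log2FC was −0.085. NONO, a core paraspeckle protein, fell by 0.25 on the log2 scale, and its partner SFPQ had 499 ± 13.8 and 503 ± 8.31 CPM. EWSR1 rose from 361 ± 20.4 to 492 ± 9.28 CPM and DAZAP1 rose by 0.17. The nuclear exosome, the machine that degrades many noncoding RNAs, had 18 tested genes, of which ZFC3H1 and DIS3 rose (0.48 and 0.30) and EXOSC5, EXOSC8, EXOSC9 and MTREX fell (−0.45, −0.31, −0.22 and −0.17).

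NORAD, a cytoplasmic RNA that sequesters the Pumilio repressors and is known for its part in keeping chromosome number stable, had the most counts of any member over all 6 libraries together, although MALAT1 and NEAT1 had more in the BARD1 siRNA libraries. It lies on chromosome 20 at 36045622 to 36050960 (minus strand) as 1 exon. Its 5339-base transcript in GENCODE release 29 held 15 matches to the Pumilio motif TGTANATA on the sense strand, or 2.81 per kb; the next highest numbers were 7 in FTX and 6 in NEAT1, and 18 of 113 member transcripts held any. Bases 1236 to 1475 of the transcript are shown because 3 of these motifs (in capitals) fall there:
NORAD: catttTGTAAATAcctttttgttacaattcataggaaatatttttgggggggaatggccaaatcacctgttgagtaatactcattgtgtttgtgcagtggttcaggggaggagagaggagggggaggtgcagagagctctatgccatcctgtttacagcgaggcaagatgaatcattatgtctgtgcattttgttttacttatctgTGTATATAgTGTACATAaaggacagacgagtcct
NORAD counts were 6388, 5708 and 6103 in the Control siRNA libraries against 7023, 7718 and 7345 in the BARD1 siRNA libraries. The groups did not overlap. The level rose from 346 ± 15.6 to 437 ± 18.1 CPM (log2FC 0.34, SE 0.05, edgeR adjusted p = 8.28e-08). The mRNA of PUM2, a Pumilio repressor, did not pass the test (log2FC 0.12, adjusted p = 0.0924).

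Per kilobase of the table's gene length, NORAD stood at 64.8 CPM with Control siRNA and 81.9 CPM with BARD1 siRNA. LINC02167 (chromosome 16, 35743268 to 35756515), without a described role, was above it at 82.7 CPM per kb with Control siRNA and below it at 44.4 with BARD1 siRNA. AC005392.2, a 301-base RNA on chromosome 19, had 43.4 and 70.9 CPM per kb, MALAT1 21.6 and 66.7, and AC008736.1, beside NUDT19, 37.8 and 29.5. NEAT1, long as it is, went from 2.96 to 23.1 CPM per kb. The order of these densities therefore differed between the groups.

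Other highly counted members moved in both directions. LINC02167 had 2881, 2512 and 3278 counts with Control siRNA against 1434, 1500 and 1533 with BARD1 siRNA. Its groups stood well apart, and the level fell from 164 ± 17.2 to 88.4 ± 0.403 CPM (log2FC −0.90, SE 0.06, edgeR adjusted p = 2.61e-17). UCA1, named for urothelial carcinoma and expressed in many epithelial tumours, had 2095, 2308 and 2075 counts against 1558, 1573 and 1468 and fell from 123 ± 10.8 to 91.1 ± 6.04 CPM (log2FC −0.44, adjusted p = 1.29e-07). AL161431.1 on chromosome 13 rose from 116 ± 11.3 to 143 ± 2.46 CPM (log2FC 0.30, adjusted p = 5.01e-05). EBLN3P, which derives from an ancient bornavirus insertion, had 82.1 ± 2.14 and 90.8 ± 3.07 CPM and missed the threshold (adjusted p = 0.0580), and LINC02474 had 41.0 ± 1.18 and 42.0 ± 0.938 CPM.

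LINC00665 fell by 0.34 on the log2 scale, with 906, 845 and 872 counts against 692, 642 and 656. BAIAP2-DT, transcribed divergently from the start of BAIAP2, had 796, 674 and 622 counts against 528, 539 and 514 and a log2 fold change of −0.35 (adjusted p = 0.00219). Its call was lost when Control siRNA replicate 1 was left out (−0.25, adjusted p = 0.0592). BAIAP2 itself fell by 0.38.

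**Figure D3:**
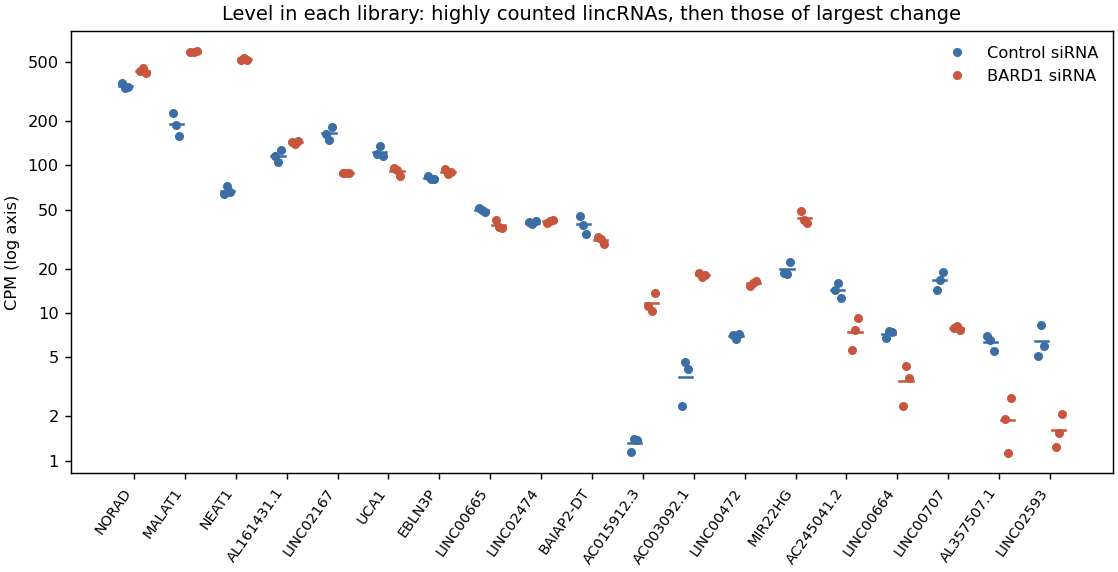
Level in CPM (log axis) of 10 highly counted lincRNAs, from NORAD to BAIAP2-DT, followed by the other called members of largest change in each direction. Points are libraries (3 per group) and short lines are group means; NEAT1, MALAT1 and AC015912.3 show the wide gaps between groups, and LINC02474 shows none.

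AC015912.3 and AC003092.1 had large fold changes, but reached 400 counts only through the BARD1 siRNA group, so that they had to differ. The first, AC015912.3 (ENSG00000274213, chromosome 17, 56914186 to 56914533, plus strand), is a single exon of 348 bases. It had 20, 24 and 25 counts in the Control siRNA libraries against 181, 175 and 236 in the BARD1 siRNA libraries, with no overlap, and rose 8.87-fold from 1.31 ± 0.150 to 11.7 ± 1.67 CPM (log2FC 3.15, SE 0.22, edgeR adjusted p = 2.14e-17). It is transcribed away from TRIM25, a ubiquitin ligase of the antiviral RIG-I pathway, whose gene begins 106 bases away on the other strand and which rose by 0.89 (adjusted p = 2.86e-21). AC003092.1 on chromosome 7 had 41, 79 and 75 counts against 302, 295 and 316. It rose from 3.71 ± 1.22 to 18.1 ± 0.561 CPM (log2FC 2.28, SE 0.17, adjusted p = 6.97e-16), and the nearest protein-coding gene, the vesicle transport gene BET1, 18451 bases away, rose by 1.07.

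Further called increases were smaller, and AC009055.2, AC092368.3 and APTR likewise reached the threshold only through their higher group. AC009055.2 had 58, 90 and 36 counts against 129, 115 and 94 and a log2 fold change of 0.93. LINC00662 rose by 0.90, AC092368.3 by 0.85, AF117829.1 by 0.75, LINC00623 by 0.71, AC005392.2 by 0.71, LINC00346 by 0.64 and APTR, described as a repressor of the CDKN1A promoter, by 0.70. AF117829.1 begins 20 bases from RIPK2, a kinase of the NOD receptor pathway that rose by 0.27. APTR begins 178 bases from RSBN1L, which fell by 0.30, so that this pair moved in opposite directions.

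Of the lower members described next, LINC02593, AL357507.1 and LINC00664 reached 400 counts only through the Control siRNA group. LINC02593 (ENSG00000223764, chromosome 1, 916865 to 921016, minus strand) had 90, 142 and 108 counts in the Control siRNA libraries against 20, 26 and 36 in the BARD1 siRNA libraries. The groups did not overlap, and the level fell from 6.48 ± 1.66 to 1.61 ± 0.424 CPM (log2FC −2.0, SE 0.26, edgeR adjusted p = 8.89e-09). Its nearest protein-coding gene, SAMD11, 2912 bases away, fell by 1.65. AL357507.1 on chromosome 6 had 122, 112 and 100 counts against 31, 19 and 46 (log2FC −1.74, adjusted p = 1.57e-07).

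LINC00707 on chromosome 10 had 251, 287 and 343 counts in the Control siRNA libraries against 129, 137 and 133 in the BARD1 siRNA libraries and fell from 16.7 ± 2.37 to 7.90 ± 0.239 CPM (log2FC −1.08, adjusted p = 9.57e-09). LINC00664, inside the zinc finger gene cluster of chromosome 19, had a log2 fold change of −1.07. ZNF429, which overlaps it on the same strand and holds more counts, fell by 0.46. Reads of this pair may be shared, and a strand setting would not separate them. LINC01224, in the same kind of cluster, had 578, 470 and 574 counts against 297, 288 and 259 (log2FC −0.88, adjusted p = 1.32e-09), while its neighbour ZNF91 rose by 0.49. AC245041.2 and AC245041.1, which overlap each other on chromosome 10, fell by 0.93 and 0.59, and may share reads.

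The remaining large decreases were AC145207.5 (−0.78), AL355338.1 (−0.73), AL365203.2 (−0.70), AC016205.1 (−0.63), MIR137HG (−0.61), LINC01963 (−0.56) and AC048341.1 (−0.53). Of these, AC145207.5, AL355338.1 and MIR137HG reached the threshold only through the Control siRNA group. The call of AC016205.1 was lost without Control siRNA replicate 3 (−0.43, adjusted p = 0.12). LINC01963 lies beside XRCC5, which encodes the Ku80 subunit of DNA end joining and fell by 0.48. Members with the smallest differences were LINC00909 (−0.02), LINC02474 (0.03), RAB30-AS1 (0.04), AC092747.4 (−0.04) and LINC01139 (−0.04), with adjusted p of 0.773 to 0.940.

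Hosts of microRNAs moved in both directions. A host transcript is cut by DROSHA and DGCR8 at a hairpin, from which DICER1 makes the mature microRNA that Argonaute proteins carry. Of the 114 members, 11 contained hairpins of the microRNA reference used (RefSeq) on their own strand, 21 hairpins with 35 mature microRNAs in all. MIR22HG, the host of miR-22, is not among these 11, because that reference held no hairpin inside it. Other members may likewise hold hairpins that the reference lacks, so absence from the 11 does not mean that a member hosts no microRNA. The mature sequences from RefSeq (GRCh38.p14) are shown for the best-known microRNAs of 6 called hosts, with the seed, bases 2 to 8, in capitals; microRNAs with the same seed can recognise the same target sites. Those of the called hosts CYTOR and AC016205.1 are not shown. The first hosts given, LINC00472, MIR222HG and MIRLET7BHG, were higher, and AC048341.1, MIR193BHG and MIR137HG were lower.
miR-30a-5p (LINC00472): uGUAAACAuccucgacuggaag
miR-30c-5p (LINC00472): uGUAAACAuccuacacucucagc
miR-221-3p (MIR222HG): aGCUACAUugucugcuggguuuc
miR-222-3p (MIR222HG): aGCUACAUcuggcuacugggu
let-7a-5p (MIRLET7BHG): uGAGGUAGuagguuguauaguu
let-7b-5p (MIRLET7BHG): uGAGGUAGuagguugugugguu
let-7i-5p (AC048341.1): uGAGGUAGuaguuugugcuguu
miR-193b-3p (MIR193BHG): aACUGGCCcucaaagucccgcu
miR-365a-3p (MIR193BHG): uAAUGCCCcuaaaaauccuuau
miR-137-3p (MIR137HG): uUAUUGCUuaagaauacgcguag
The let-7 seed GAGGUAG was held by a host that rose and by a host that fell. Mature microRNAs themselves were not measured by these poly(A) libraries, and the rows of the hairpins held 0 to 82 counts over all libraries.

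LINC00472 (chromosome 6, minus strand) had 125, 114 and 129 counts in the Control siRNA libraries against 249, 269 and 288 in the BARD1 siRNA libraries, without overlap, and rose from 6.99 ± 0.256 to 15.9 ± 0.611 CPM (log2FC 1.19, SE 0.14, edgeR adjusted p = 1.02e-09). A gene known only by its clone name, AL136164.4, overlaps it on the same strand and holds 1663 counts, more than LINC00472 itself. MIR22HG, the host of miR-22, had 330, 311 and 402 counts against 799, 721 and 707 and rose from 19.8 ± 2.20 to 44.2 ± 4.46 CPM (log2FC 1.16, SE 0.10, adjusted p = 2.06e-14). WDR81 overlaps it on the other strand, with 1879 counts in all, and rose by 0.40. MIR222HG on the X chromosome rose from 5.50 ± 0.860 to 9.26 ± 1.61 CPM (log2FC 0.75, adjusted p = 0.000662) and MIRLET7BHG from 8.65 ± 1.61 to 13.4 ± 2.85 CPM (0.64, adjusted p = 0.000871).

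AC048341.1, the host of let-7i on chromosome 12, had 260, 226 and 219 counts in the Control siRNA libraries against 148, 141 and 181 in the BARD1 siRNA libraries, and fell from 13.4 ± 1.33 to 9.29 ± 1.04 CPM (log2FC −0.53, edgeR adjusted p = 0.00251). MIR193BHG went from 10.1 ± 1.39 to 7.63 ± 0.399 CPM (−0.40, adjusted p = 0.0412). That call was lost without Control siRNA replicate 1 or 3, without any single BARD1 siRNA library, in DESeq2 and with no filter on low counts, with adjusted p of 0.0577 to 0.209. MIR137HG had 78, 81 and 100 counts against 76, 47 and 39, and its groups overlapped (adjusted p = 0.0452). Its call was lost in 8 of the 14 alternative fits, among them those without any 1 Control siRNA library and without BARD1 siRNA replicate 2 or 3, with adjusted p of 0.0517 to 0.261; it overlaps DPYD, which holds 9235 counts and fell by 0.52.

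Of the 11 members with hairpins in the reference used, 4 were higher, 4 were lower and 3 did not pass. CYTOR was among the higher and AC016205.1 among the lower. MIR22HG, which was higher, is outside that tally. Of the 6 members named as hosts, 3 were higher, 2 were lower and MIR4435-2HG did not pass. Of 10 microRNA biogenesis genes, 4 rose and 0 fell in the edgeR test, again beside 22.0% and 20.3% of all tested genes. These were AGO2, the Argonaute that cleaves targets, from 115 ± 10.3 to 208 ± 6.46 CPM (log2FC 0.86), AGO4 (0.40), DICER1 (0.38) and AGO3 (0.25). DROSHA had a log2 fold change of −0.16 (adjusted p = 0.108) and DGCR8 of 0.02.

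**Figure D4:**
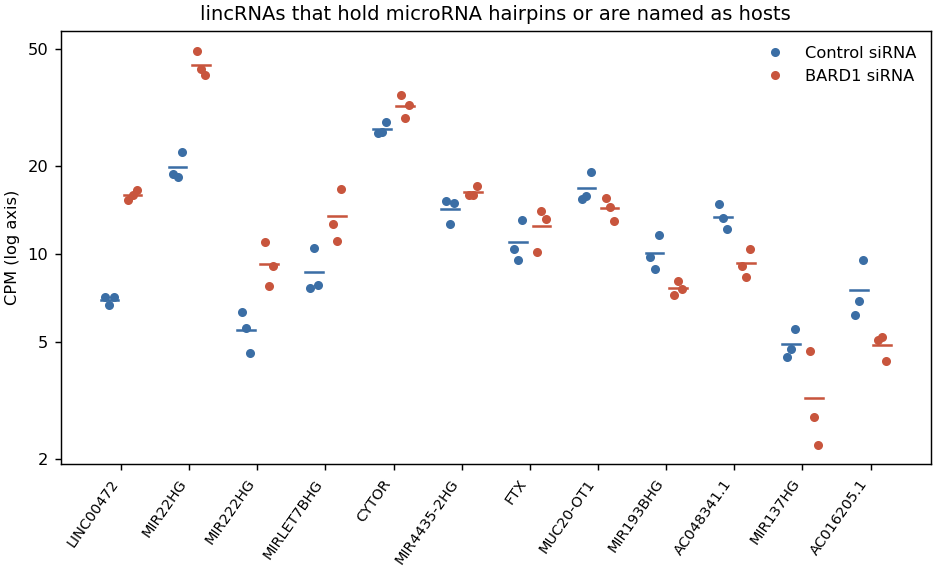
Level in CPM (log axis) of the lincRNAs that contain hairpins of the microRNA reference used, with MIR22HG, in order of their log2 fold change. Points are the 3 libraries of each group and lines their means; LINC00472 and MIR22HG show the largest gaps, and the lowest BARD1 siRNA points belong to MIR137HG.

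The lincRNAs best known from tumours form a short list with few calls. Of 6 members of that list, which also holds MIR4435-2HG, CYTOR was higher, UCA1 was lower and 4 did not pass. Among all tested genes 22.0% were called higher and 20.3% lower, so this small tally does not set the list apart. CYTOR had 454, 442 and 509 counts in the Control siRNA libraries against 565, 490 and 560 in the BARD1 siRNA libraries and went from 26.7 ± 1.35 to 32.0 ± 2.88 CPM (log2FC 0.26, edgeR adjusted p = 0.0252). The call was lost in 6 alternative fits, including those without Control siRNA replicate 1 or 2 and without BARD1 siRNA replicate 1 or 3 (adjusted p of 0.0611 to 0.166). CYTOR and MIR4435-2HG are near-identical copies on chromosome 2, between which reads may have been divided, and MIR4435-2HG had 14.2 ± 1.35 and 16.3 ± 0.669 CPM (adjusted p = 0.219).

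PVT1, which lies 53099 bases from MYC and can act on it in cis, had 81, 99 and 91 counts against 93, 152 and 112, with a log2 fold change of 0.45 (adjusted p = 0.0660). It passed without Control siRNA replicate 2 or without BARD1 siRNA replicate 1, with adjusted p of 0.0307 and 0.0496. MYC rose by 1.41. CRNDE, beside IRX5, had 451, 446 and 484 counts against 353, 387 and 416, which did not overlap, but missed the threshold (log2FC −0.20, adjusted p = 0.110); with upper-quartile factors or library size alone it passed (adjusted p = 0.0284 and 0.0328). LINC00958 had a log2 fold change of 0.11 (adjusted p = 0.369) and FTX, a regulator at the X inactivation centre, of 0.18 (adjusted p = 0.362).

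The nearest protein-coding genes gave a mixed picture. Across the 114 members and their nearest tested protein-coding genes (110 distinct), log2 fold changes correlated with Pearson r = 0.305 and Spearman rho = 0.302, a description across genes of the same 6 libraries. Pairs that overlap, such as MIR22HG with WDR81 and MIR137HG with DPYD, are included. They may share reads, as the strand setting is not given and some pairs, such as MIR137HG with DPYD, lie on the same strand. Their part in these values was not tested. Both partners were called in 32 pairs: in 12 both were higher, in 9 both lower and in 11 they moved in opposite directions. For the 25 members that start within 1000 bases of a gene on the other strand, r was 0.498 and rho 0.368, and both were called in 6 pairs, 4 of them both higher, 1 both lower and 1 opposite. Of these 25 members, 7 were higher and 4 lower (28.0% and 16.0%), beside 26.3% and 24.7% of tested genes with at least 400 counts. Neighbouring genes of other kinds were not paired in this way, so the correlations and pair counts are not read as a trait of lincRNAs.

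Some members did not follow a neighbour that changed strongly. AL133163.3, 42254 bases from NFKBIA, the gene of the NF-kappaB inhibitor, had 200, 191 and 198 counts against 146, 155 and 159 (log2FC −0.30, adjusted p = 0.104), while NFKBIA rose by 2.25. It passed as lower with upper-quartile factors or library size alone (adjusted p = 0.0419 and 0.0455). AC060780.1, which overlaps BRCA1, had 12.8 ± 1.37 and 13.3 ± 1.28 CPM, while BRCA1, the partner of BARD1, fell by 0.66. UCA1 fell and its nearest tested gene CYP4F11, 76041 bases away, rose by 1.05.

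**Figure D5:**
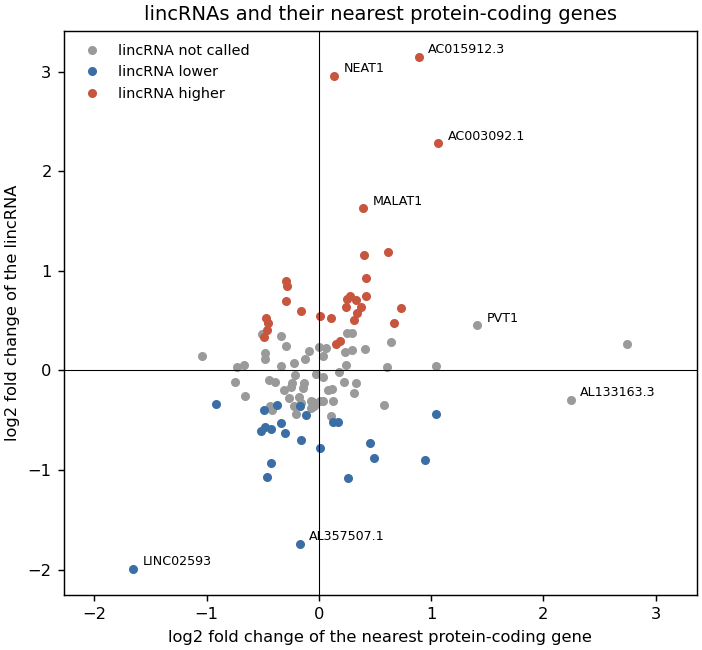
Log2 fold change of each lincRNA (vertical) against that of its nearest tested protein-coding gene (horizontal); each point is 1 lincRNA, coloured by its call. AC015912.3, AC003092.1 and LINC02593 lie in the quadrants of shared direction, NEAT1 far above a neighbour near 0, and AL133163.3 beside a neighbour at 2.25.

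Promoters could be read for 43 members whose RefSeq start (GRCh38.p14) lay within 1000 bases of the table's start, as 300 bases from 250 before to 50 after that start. The AP-1 motif TGANTCA, which reads the same on both strands, was in 6 of these 43 and in 7.76% of 27303 RefSeq promoters. AP-1 is the factor formed by FOS and JUN proteins. By call, it was in 5 of 15 higher members (LINC00346, LINC01629, LINC01411, EIF3J-DT and CYTOR), in 0 of 9 lower members and in 1 of 19 that did not pass (MANCR). The 15 higher members include LINC01629 and APTR, and the 9 lower members include MIR137HG and LINC00664. Each of these reached the count threshold only through its higher group, so that it had to differ. Splits by call without them were not made for any motif. The promoters of LINC00346 and CYTOR are shown because each holds 2 matches, in capitals, close to the RefSeq start (98 and 42 bases before it in LINC00346, 19 and 9 in CYTOR). They lie at chr13:110870259-110870558, minus strand, and chr2:87455177-87455476, plus strand. The RefSeq start of CYTOR is 646 bases from the table's start, so that the stretch shown for it lies inside the counted gene.
LINC00346: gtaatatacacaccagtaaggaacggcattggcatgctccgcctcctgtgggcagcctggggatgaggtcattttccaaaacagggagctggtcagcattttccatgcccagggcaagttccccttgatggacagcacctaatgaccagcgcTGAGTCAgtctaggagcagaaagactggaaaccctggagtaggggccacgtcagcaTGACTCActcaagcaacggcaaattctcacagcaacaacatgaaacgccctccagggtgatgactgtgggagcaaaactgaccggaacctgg
CYTOR: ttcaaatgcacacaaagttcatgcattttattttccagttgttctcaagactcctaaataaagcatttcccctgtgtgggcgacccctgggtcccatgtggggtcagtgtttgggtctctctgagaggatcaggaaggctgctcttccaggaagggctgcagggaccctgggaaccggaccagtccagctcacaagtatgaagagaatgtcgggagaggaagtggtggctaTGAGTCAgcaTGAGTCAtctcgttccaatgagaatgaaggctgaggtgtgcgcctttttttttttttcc
Apart from LINC00346, the higher members with this motif had weak calls. LINC00346 had 94, 79 and 108 counts against 117, 153 and 151 and passed in all 14 alternative fits. LINC01629 (0.60), LINC01411 (0.52), EIF3J-DT (0.48) and CYTOR were lost in 6, 4, 10 and 6 of them. Leaving out a single library ended the call of each, with adjusted p up to 0.163 for LINC01629, 0.167 for LINC01411 and 0.254 for EIF3J-DT over those fits.

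The other 6 motifs were searched on both strands. The CRE motif TGACGTCA and the ATF4-CHOP motif TGATGNAA were in 0 of 43 (1.98% and 3.67% of all promoters). A loose NF-kappaB pattern, 3 G followed by any 5 bases and 2 C, was in 27 of 43 (58.0% of all), the E-box CACGTG in 5 (7.44%), CCAAT in 22 (35.7%) and TATAAA in 2 (12.0%). By call, the E-box was in 3 of 15 higher, 0 of 9 lower and 2 of 19 other members, the NF-kappaB pattern in 11, 5 and 11, CCAAT in 8, 6 and 8, and TATAAA in 0, 1 and 1, so AP-1 was not the one motif with more matches among higher than lower members. Apart from the free positions of the NF-kappaB pattern, none of these motifs can contain another. A match is only a run of letters, and no match says nothing about a factor.

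Transcript features are given by direction, with no test. The median gene length was 3386.5 bases in the 30 higher, 3148 in the 23 lower and 2870 in the 61 other members, and the median of the largest exon number was 3.5, 4 and 3. Annotated transcripts numbered 3.5 per gene at the median in higher, 2 in lower and 2 in other members, and the AU-rich pentamer ATTTA had median densities of 1.91, 1.10 and 1.28 per kb of the longest transcript. Over 113 longest transcripts, log2 fold change had Spearman rho of 0.0097 with length, 0.0045 with GC content, 0.043 with Pumilio motifs per kb and 0.20 with ATTTA per kb, all descriptions across genes of 1 experiment. The tallies that follow are small and were not tested, and stand beside 26.3% higher and 24.7% lower of tested genes with at least 400 counts. Of the chromosomes tallied, chromosome 10 had 0 higher and 4 lower of 8 members (2 of the 4 overlap each other), chromosome 19 had 2 and 5 of 12, chromosome 1 had 2 and 2 of 9, and chromosome 17 had 3 and 2 of 12. By name, members with LINC numbers were higher in 9 and lower in 10 of 34 cases, members known only by clone names in 10 and 9 of 46, and all others in 11 and 4 of 34.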

How the data were processed

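RNA was sequenced after poly(A) capture from SKOV3ip1 cells given Control siRNA or BARD1 siRNA (3 libraries each). The authors deposited raw counts of reads for each gene, without normalisation; HISAT2 and CASAVA were used with GRCh38 (hg38), per the submitters' processing notes. The labels state no versions, counting program, annotation or strand setting. Gene lengths in the table equalled the GENCODE release 29 exon union for all 114 members. Without the strand setting, reads of overlapping genes on opposite strands cannot be told apart. Genes that overlap on the same strand may share reads whatever that setting. In all, 63 members overlap another gene with counts, and in 18 the partner has more.

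All genes were tested together with edgeR 4.0.16 in R 4.3.3: TMM factors, filterByExpr (minimum count 10, minimum total 15), robust quasi-likelihood F test, Benjamini-Hochberg adjustment over 15271 genes and a threshold of 0.05. SE is the absolute log2 fold change over the root of F. At these depths the biological coefficient of variation was 7.20%, and the median SE of a member was 0.16. The steps were tested on simulated data.

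The members and all lists were chosen with earlier results of these data known. Named are the most highly counted members and those densest per kb, the 15 largest called changes in each direction, the 5 smallest differences, those at the count threshold, role list members, microRNA hosts and nearest protein-coding genes. Members named for a neighbour, a motif, a RefSeq name or an alternative fit were chosen after their values were seen. Role lists for p53, inflammation, imprinting and other regulators held 0 members. Members outside this rule enter the counts only, and results for a few genes are not reported here. As alternatives served RLE, upper-quartile and library-size scaling, DESeq2 1.42.0, no robust estimation, other filters, a replicate block, each library left out, and other choices of members. Flags for single outlying libraries need groups of 4 or more and were not computed.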

Additional observations from a re-analysis of the deposited data

How the results depend on the processing

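The 30 higher and 23 lower calls stayed within 1.5 times under every other scaling, tool, filter and left-out library tried. The median log2 fold change of the members, −0.029, lay so near 0 that its sign varied: it was −0.094 with upper-quartile factors, −0.088 with library size alone, and −0.066 to 0.014 when each library was left out in turn, where 23 to 28 members were higher and 21 to 24 lower. Other choices of members changed the counts because fewer genes entered. With at least 1000 counts, 14 were higher and 15 lower (median −0.12), and among members that overlap no other gene with counts 15 were higher and 10 lower (median 0.045). Among members whose lower group alone held 200 counts, a choice added after the data were seen, the median was 0.0081. Same-numbered libraries had correlations of −0.0091, −0.015 and −0.022 in their deviations from the group means, and differently numbered ones −0.010 to 0.026. With 3 libraries in each group, such values cannot decide whether same-numbered cultures were handled together. A fit with the replicate block called 28 members higher and 25 lower, with a median of −0.011. Over 113 members, whether named in the text or not, 38 kept their call (20 higher and 18 lower) in all 14 alternative fits, no called member reversed in any of them, and 13 members without a call passed in at least 1. Calls of members with few counts are limited by depth: the median SE was 0.21 for members under 1000 counts and 0.082 for those with at least 3000.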

Other observations

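Below the count threshold, 416 further lincRNA genes were tested, of which 37 were higher and 31 lower in the edgeR test, with a median SE of 0.47 on the log2 scale. These are 8.89% and 7.45%, beside 22.0% and 20.3% of all tested genes. Antisense genes with at least 400 counts, another class of long noncoding RNA, had 21 higher and 19 lower of 106 (19.8% and 17.9%). Of all tested genes with at least 400 counts, 26.3% were higher and 24.7% lower. Rows of the microRNA hairpins inside the members held few counts. MIR30C2, inside LINC00472, had 5, 2 and 3 counts in the Control siRNA libraries and 13, 6 and 8 in the BARD1 siRNA libraries. MIR221, inside MIR222HG, had 9, 2 and 10 against 14, 16 and 5, which overlap. These poly(A) libraries were not made to measure them.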
